A study of Rattus norvegicus with 10 samples.

Results

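The dopamine neuron genes described here are 9 genes, namely *Th*, *Ddc*, *Slc6a3*, *Slc18a2*, *Nr4a2*, *Chrna6*, *Foxa1*, *En1* and *Pitx3*. A dopamine neuron uses them to make, store and recapture its transmitter, to hold its identity or, with *Chrna6*, to sense acetylcholine. They were chosen by name, with the measured diet comparison of these same libraries already known, so nothing about their behaviour between diets could be supported by them. Of the 9 genes, 6 were matched by symbol among the 12828 genes analysed, and *Foxa1*, *En1* and *Pitx3* were not analysed here. The libraries were made from the arcuate nucleus (ARC) of the hypothalamus of 10 first-time pregnant Wistar dams, taken at parturition. Of these dams, 5 had eaten the 5X-FA diet, which holds 5 times the recommended folic acid, and 5 had eaten the 5X-MTHF diet, which holds the equimolar amount of the reduced folate 5-methyltetrahydrofolic acid. All dams shared the same base diet, and the folate diets were given in pregnancy only. The ARC was cut free hand from a frozen coronal slice with the ventricle as guide, so the tissue is a bulk sample in which fewer cells of a type and less RNA per cell cannot be told apart.

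Dopamine is made from tyrosine in a pair of steps, packed into vesicles, released, and taken back up by a transporter in the cell membrane. Dopamine neurons lie in the midbrain, where they serve movement and reward, and also in the ARC itself, where the tuberoinfundibular neurons release dopamine toward the pituitary and hold back prolactin. The ARC neurons share the synthesis and packing genes with the midbrain neurons, while transcription factors such as *Nr4a2*, *En1* and *Pitx3* are best known from the midbrain.

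The promoters of *Th* and *Slc18a2* are shown because both hold the same stretch of letters, the cyclic AMP response element (TGACGTCA), to which factors of the CREB family bind. The sequences are RefSeq's, on build GRCr8, and each window of 300 bases runs from 250 bases before the gene's start in that table to 50 bases after it. The 60 bases printed for each gene read 5′ to 3′ on the gene's own strand, with the element in capitals. The *Th* stretch is chr1:207508254-207508313 on the minus strand and the *Slc18a2* stretch is chr1:268399943-268400002 on the plus strand.
Th: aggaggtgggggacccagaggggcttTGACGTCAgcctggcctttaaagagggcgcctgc
Slc18a2: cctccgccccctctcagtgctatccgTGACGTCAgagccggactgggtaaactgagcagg
The element begins 69 bases before the start in *Th* and 52 bases before it in *Slc18a2*. It was found in 1.83% of all 33469 promoter windows, and it reads the same on both strands. The *Th* and *Slc18a2* windows hold more G and C than the median window, so that share is not a like background. The motifs were picked with the members already known, and the choice to print these sequences was made after the matches were seen. A match of letters is a description of the window, not a measured site.

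The other motifs searched were commoner or stood in fewer members. Windows were at hand for 5 of the 6 genes, 7 windows in all since *Ddc* has 3, and none was at hand for *Chrna6*. The GC box (GGGCGG), bound by Sp1, stood in the windows of *Slc6a3* and *Slc18a2* and in 33.1% of all windows. The CCAAT box (CCAAT) stood in *Slc18a2* and in 1 window of *Ddc*, against 37.5% of all windows. The TATA box (TATAAA) and the NGFI-B response element (AAAGGTCA), bound by the NR4A family of nuclear receptors to which *Nr4a2* belongs, both stood in the same 300 bases of *Ddc*. These motifs were present in 14.2% and 1.43% of all windows, and no motif searched contains another. In *Ddc* their matches, both on the opposite strand, overlapped in part, so they are not separate stretches. By base composition, G and C made up 65.3% of the *Th* window, 68.0% of that of *Slc6a3* and 68.3% of that of *Slc18a2*. The median over all windows was 51.7%. The *Nr4a2* window stood at 48.7%, and those of *Ddc* were at 44.7%, 55.0% and 53.0%.

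The level of each gene is the authors' log2 CPM, the counted reads scaled to library size, read here as an average over all libraries. Whether that level is a mean of log2 values or the log2 of a mean is not given in the sources used here. It is not divided by transcript length, so it says how many reads a gene took and does not rank transcript abundance between genes. A mean over all libraries also cannot tell a level shared by every dam from one carried by a few. No value could be assigned to a dam or a diet, so no diet comparison or test is given. No spread is given either, since the unlabelled per-sample columns were used in no step. The values used do not carry the depth of the single libraries. All genes here means the 12828 genes of the deposited table, which its name marks as filtered, and not every rat gene. Percentiles and medians are therefore among those genes only. Over all genes the values lay between -2.07 and 14.56, and their median was 4.94.

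The genes of dopamine synthesis, vesicle packing and reuptake took closely similar numbers of reads, while the nuclear receptor and the acetylcholine receptor subunit took fewer. The 6 genes had a median average log2 CPM of 5.14, a little above that of all genes, and 4 of the 6 lay above the median of all genes. Their summed value was 172.8 CPM, or 0.0173% of the sum over all genes. None of the genomic spans of the 6 genes overlapped that of another analysed gene (0 of 6), and coordinates below are those of Rnor_6.0.

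**Figure D1:**
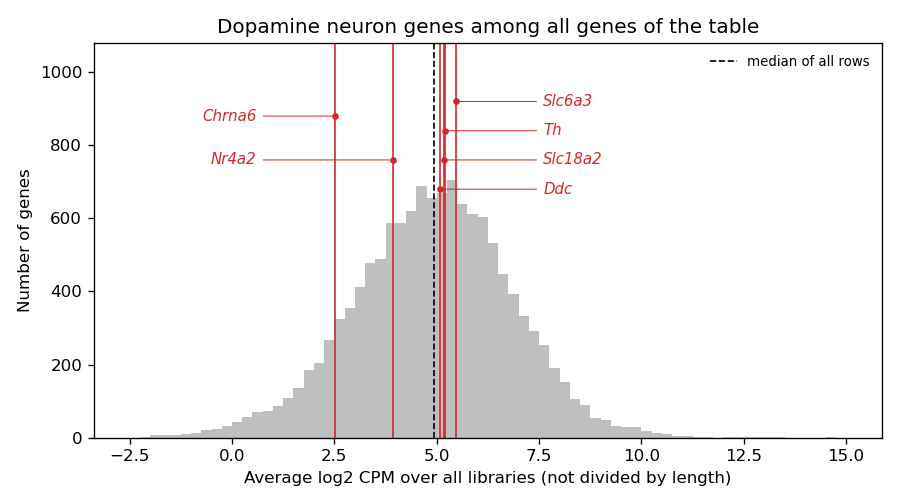
Distribution of the average log2 CPM over all libraries (x axis, not divided by length) for the 12828 genes, as the number of genes per bin (y axis), with red lines at the 6 dopamine neuron genes and a dashed line at the median of all genes. *Th*, *Ddc*, *Slc18a2* and *Slc6a3* sit close together just above the median of 4.94, and *Nr4a2* (3.93) and *Chrna6* (2.52) sit below it.

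Among the synthesis genes, *tyrosine hydroxylase* (*Th*), the rate-limiting enzyme of dopamine synthesis, had an average log2 CPM of 5.20, or 36.8 CPM. It took more reads than 55.3% of all genes, and it lies on chromosome 1 from 216073031 to 216080287. *Dopa decarboxylase* (*Ddc*), which turns L-DOPA into dopamine and also serves serotonin synthesis, had an average log2 CPM of 5.09, or 34.1 CPM. It took more reads than 53.1% of all genes, and it lies on chromosome 14 from 91905919 to 91996774.

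Among the transporters, the *dopamine transporter* (*Slc6a3*), which takes dopamine back into the neuron that released it, had the highest value of the 6 genes. Its average log2 CPM was 5.48, or 44.5 CPM, more reads than 61.2% of all genes, and it lies on chromosome 1 from 32321580 to 32363983. The *vesicular monoamine transporter 2* (*Slc18a2*), which loads dopamine, serotonin, noradrenaline and histamine into vesicles, had an average log2 CPM of 5.19, or 36.4 CPM. It took more reads than 55.0% of all genes and lies on chromosome 1 from 280423079 to 280457148, so that 3 of the 6 genes are on that chromosome. The 4 synthesis and transport genes together spanned 0.39 on the log2 scale of reads taken, and whether neighbours in that order differ could not be tested.

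Among the remaining genes, the orphan nuclear receptor *Nr4a2*, known too as Nurr1, is needed for midbrain dopamine neurons to form. It is also induced by neuronal activity. Its average log2 CPM was 3.93, or 15.2 CPM, more reads than 29.7% of all genes, and it lies on chromosome 3 from 43111240 to 43119159. *Chrna6*, the alpha 6 subunit of nicotinic acetylcholine receptors on dopamine terminals, had the lowest value, an average log2 CPM of 2.52 or 5.75 CPM. It took more reads than 10.8% of all genes, and it lies on chromosome 16 from 68860018 to 68866718. Its nearest analysed neighbour was *Chrnb3*, at a distance of 8.99 kb, which encodes a subunit of the same receptor family and had an average log2 CPM of 2.88.

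Around these genes, 37 further genes in 6 lists covered the rest of the dopamine pathway and its relatives, and 26 of them were analysed. Among the dopamine receptors 3 of 5 were analysed, with *Drd1* at an average log2 CPM of 5.01, *Drd2* at 4.70 and *Drd5* at 1.29. *Drd3* and *Drd4* were not analysed here. *Drd1* and *Drd5* encode receptors that raise cyclic AMP, and *Drd2* encodes one that lowers it and also serves as autoreceptor on dopamine neurons. Both breakdown genes reported lay above the median of all genes in reads taken. Monoamine oxidase A (*Maoa*) stood at an average log2 CPM of 6.66 and monoamine oxidase B (*Maob*) at 6.69.

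Tyrosine hydroxylase needs the cofactor tetrahydrobiopterin, and all 6 genes of its synthesis and recycling were analysed, with a median average log2 CPM of 3.55. *Gch1*, which catalyses the first and limiting step, stood at an average log2 CPM of 1.99, and *Gchfr*, which encodes the protein that holds it back, stood at 0.73. The later steps of synthesis are run by *Pts*, at an average log2 CPM of 3.69, and *Spr*, at 3.40. The recycling genes stood at 7.96 for *Qdpr* and 4.66 for *Pcbd1* on the same scale. *Qdpr* alone of the 6 lay above the median of all genes.

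For the other monoamines and histamine, 2 of 8 genes were analysed. *Slc18a1*, the vesicular monoamine transporter of endocrine cells, had an average log2 CPM of 1.73, and *Hdc*, which makes histamine in neurons of the posterior hypothalamus, had one of 4.45. *Dbh*, *Pnmt*, *Slc6a2*, *Tph1*, *Tph2* and *Slc6a4* were not analysed here. Nor were any of the 3 markers fixed for serotonin neurons or any of the 3 for noradrenergic neurons, so the share of *Ddc* and *Slc18a2* reads that came from such cells was not tested.

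Of 8 other regulators known from midbrain dopamine neurons, 5 were analysed, and 0 of these lay above the median of all genes. *Foxa2*, *En2* and *Otx2* had no match by symbol among the genes of the deposited table. *Lmx1a* and *Lmx1b*, which specify the midbrain neurons, stood at an average log2 CPM of 2.37 and 0.31. The relatives of *Nr4a2*, the activity-induced receptors *Nr4a1* and *Nr4a3*, stood at 3.35 and 3.37, and *Sox6* stood at 3.80 on the same scale. All 8 further genes of midbrain dopamine neurons were analysed, with a median average log2 CPM of 4.39. *Calb1*, a calcium buffer, had the highest value of these at 7.57, followed by *Aldh1a1*, which makes retinoic acid, at 6.03 and *Ret*, the receptor for glial cell line-derived factors, at 6.01. The potassium channel gene *Kcnj6* stood at an average log2 CPM of 4.74, the neurotensin receptor *Ntsr1* at 4.05, *Slc10a4* at 3.94 and *Sncg* at 3.79. Each of these genes is also expressed by other neurons, so the list does not by its name fix the source of the reads.

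**Figure D2:**
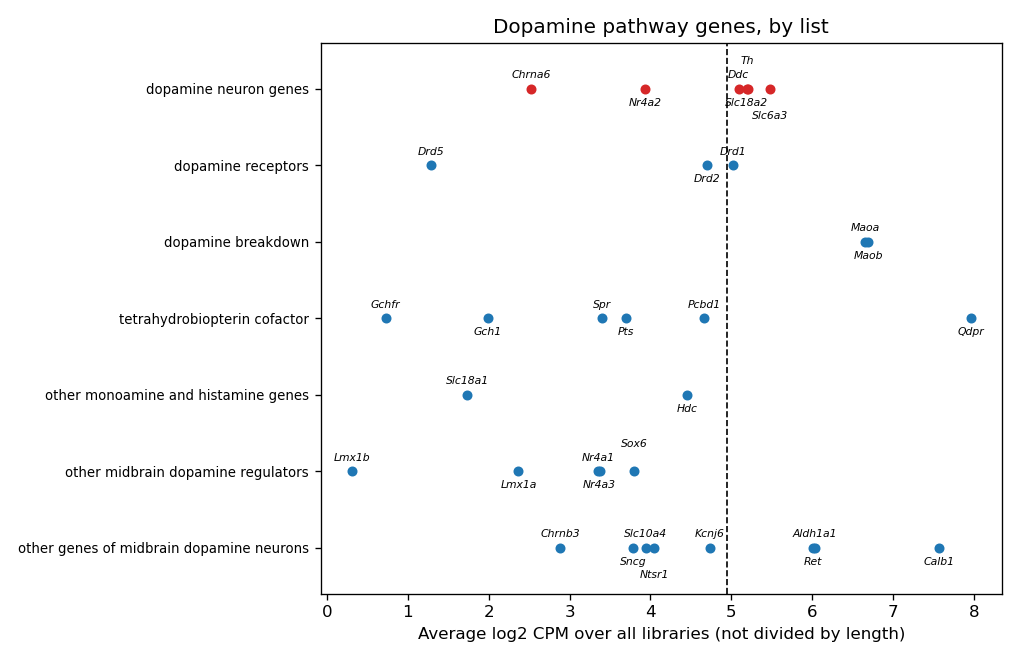
Average log2 CPM over all libraries (x axis, not divided by length) for each analysed gene of the dopamine neuron genes (red) and of the 6 pathway lists (blue), 1 point per gene and 1 row per list, with a dashed line at the median of all genes. The 2 breakdown genes lie right of the line and all 5 other midbrain regulators lie left of it.

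The label of the tissue was checked against markers. Of 11 ARC markers 9 were analysed, with a median average log2 CPM of 2.45. The ARC markers *Npy* and *Nr5a2* were not analysed here. Among the 9 were *Pomc* at an average log2 CPM of 4.67, *Agrp* at 1.42, *Cartpt* at 6.02 and *Kiss1* at 0.08. *Tac3*, *Isl1*, *Tbx3* and *Ghrh* had average log2 CPM values from 1.02 (*Ghrh*) to 4.34 (*Tac3*). The prolactin receptor *Prlr*, which tuberoinfundibular dopamine neurons carry, stood at 2.21 on that scale. The 6 striatal markers, 1 of them *Drd1*, had a median average log2 CPM of 5.67 and values from 4.26 to 7.07, and the striatum is a region to which midbrain dopamine neurons project. In reads taken, 1 of the 9 ARC markers and 5 of the 6 striatal markers lay above the median of all genes. Reads taken do not rank transcript abundance between genes, so these counts do not compare the amounts of the regions. Markers of the ARC were thus measured, and so were genes listed as striatal markers. Whether the reads of the striatal markers came from cells inside or outside the ARC was not tested. The markers do not show whether the sample held the ARC alone. Medians were 9.28 for neuronal, 9.73 for astrocytic, 12.48 for oligodendrocytic and 4.46 for microglial markers on the same scale. The part of cells outside the ARC in the values of the dopamine neuron genes was not tested.

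**Figure D3:**
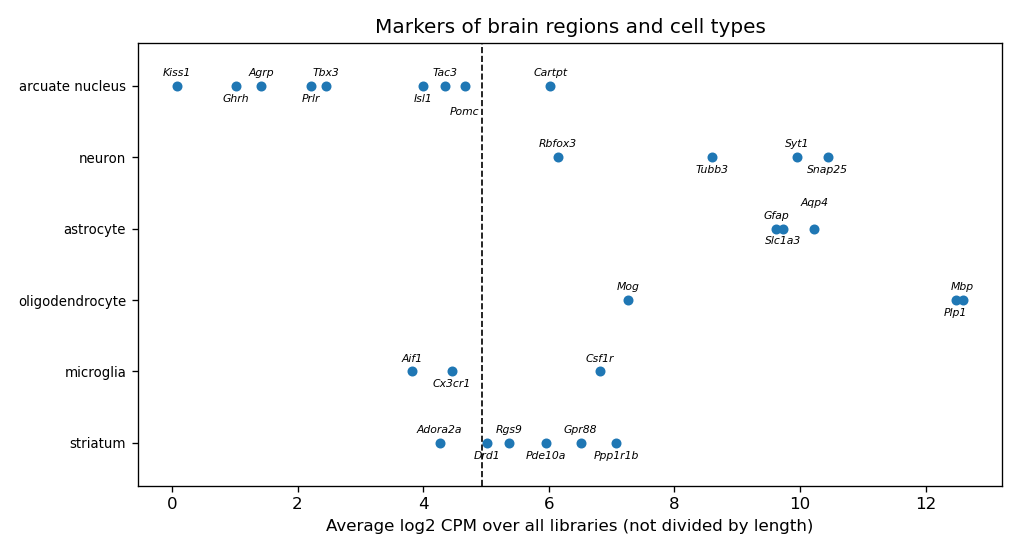
Average log2 CPM over all libraries (x axis, not divided by length) for markers of the ARC, of 4 brain cell classes and of the striatum, 1 point per gene, with a dashed line at the median of all genes. Of the 9 ARC markers 1 lies right of the line, as do 5 of the 6 striatal markers. Reads taken do not rank transcript abundance between genes.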

How the data were processed

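Per the study's methods, poly-A selected RNA from the ARC of 5 dams per diet was sequenced as read pairs and trimmed with Trim Galore 0.5.0. The authors aligned the reads with STAR 2.6.0c to Rnor_6.0 and obtained counts per Ensembl gene with HTSeq 0.6.1p2. The authors compared the diets with DESeq2.

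The only values used were the average log2 CPM that the authors deposited for each of 12828 genes (12383 protein-coding), a log2 value over all libraries with no SD or n. In the deposited table, 4 columns hold the log2 fold change, F statistic, *p*-value and FDR of a diet comparison made by the authors, and none was used. DESeq2 gives neither an F statistic nor an average log2 CPM, so this table came from a fit other than the one the methods describe, and its tool is not given in the sources used here. A further 10 per-sample columns match no sample label and were used in no step. By the name of the deposited table they hold FPKM, which is reads scaled to library size and length. The limma comparison of diets that had been planned was not run, since it needs a value for each dam. The study's methods give an approximate depth that applies to every sample; the depth of the single libraries and the counting error were not computed here.

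Each gene was placed by the percentage of genes with a strictly lower average log2 CPM, and CPM is 2 raised to that average. Medians and ranges were taken per list. Promoter windows came from RefSeq (GRCr8), searched on both strands for 5 motifs. Symbols occurring more than once (22 repeats) stayed separate rows. The percentile calculation and the motif search were tested on simulated data, and the other calculations were not. Python 3.11.15, numpy 2.4.6, pandas 2.3.3 and matplotlib 3.10.9 were used.

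The members and lists were chosen with earlier results of these data known. All 9 members, and every analysed gene of the lists, could be named, except 1 gene of the lists that is not reported here and was left out of the counts.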

Additional observations from a re-analysis of the deposited data

How the results depend on the processing

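Placed among the protein-coding genes instead of all genes, each of the 6 dopamine neuron genes had a lower percentile, by 1.05 to 1.77 percentage points. Counting only genes above the median of all genes in average log2 CPM, 4 of the 6 genes remained. No paired analysis was possible because no column of values matched a dam's label. No column of values matched a dam's label. For this reason the other pseudocount, the filter on low values and the fits leaving out each dam were not run. The count-based tests, the adjustment over protein-coding genes and the level per dam were not run either. The level per kilobase was not computed. No transcript length on Rnor_6.0 was at hand, and the per-sample columns, FPKM by name, were used in no step. The counting precision of the lowest value, that of *Chrna6*, was not computed, since the values used carry no depth of single libraries.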
